A study of Rattus norvegicus with 12 samples.

Results

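The transforming growth factor beta (TGF-beta) and bone morphogenetic protein (BMP) genes were followed in whole kidneys of rats with L-NAME nephropathy, at the peak of the disease and during its repair. The members are 10 genes chosen by symbol, and 9 of them were measured among the 18166 genes analysed. These include the ligands Tgfb1, Tgfb2 and Tgfb3, the latency protein Ltbp1, the receptor Tgfbr1 and the signal transducer Smad3. The others measured are the inhibitory Smad7, the target gene Ccn2 and the opposing ligand Bmp7. The tenth, Tgfbr2, was not analysed here. Each member was represented by a single probeset, and 78 of 87 further genes of the pathway, listed by their role, were measured with them. Members and lists were chosen with earlier results of these data known, so their shares beside those of all genes are a description.

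Male Sprague Dawley rats were used in all groups. L-NAME, an inhibitor of nitric oxide synthases, was given at 15 mg/kg per day, with 6 g/L NaCl in the drinking water to make the renal injury faster and more severe. Rats of the W0 group were killed when the urinary protein excretion ratio exceeded 1 g/mmol, the peak of renal damage. Rats of the W1 and W5 groups passed the same threshold and were killed 1 and 5 weeks after L-NAME was stopped, while CTL rats of the same age received no L-NAME. Whether CTL rats received the salt is not stated in the sources used here. Total RNA from a piece of each kidney was hybridized on Affymetrix arrays, 3 rats per group and 12 arrays in all. All values below are log2 levels, so a difference of 1 is a 2-fold change. A level is comparable between arrays for the same gene and not between genes.

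TGF-beta is secreted in a latent form, bound to its own propeptide and to latent TGF-beta binding proteins that tether it in the matrix. After release it joins the type II and type I receptors, and the type I receptor phosphorylates Smad2 and Smad3, which enter the nucleus with Smad4. Smad7 is induced by this signal and blocks the type I receptor. In the kidney the TGF-beta arm is known for fibroblast activation and matrix deposition, whereas BMP7, which signals through Smad1, Smad5 and Smad9, opposes it and is required for nephron development.

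Ccn2 and Smad7 are direct targets of the pathway in cell culture, and their promoters are shown because the means of the 2 genes at W0 lay on opposite sides of CTL (the change of Smad7 was not called, and no test compared the genes). The sequences are from RefSeq on build GRCr8, the 250 bases before the annotated start, and 8 of the 9 measured members were matched there (all but Bmp7). Capitals mark matches, on both strands and without overlap, to CAGAC and GGCGCC, letters bound by Smad proteins, and to GGAATG, the core bound by TEAD proteins. Ccn2 lies on the minus strand (chr1:22624615-22624864) and Smad7 on the plus strand (chr18:71263258-71263507).
Ccn2: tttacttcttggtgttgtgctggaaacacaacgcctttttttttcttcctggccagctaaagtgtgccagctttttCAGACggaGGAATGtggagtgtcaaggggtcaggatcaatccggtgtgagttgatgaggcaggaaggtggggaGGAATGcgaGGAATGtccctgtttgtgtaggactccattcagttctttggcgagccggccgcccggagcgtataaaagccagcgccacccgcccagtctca
Smad7: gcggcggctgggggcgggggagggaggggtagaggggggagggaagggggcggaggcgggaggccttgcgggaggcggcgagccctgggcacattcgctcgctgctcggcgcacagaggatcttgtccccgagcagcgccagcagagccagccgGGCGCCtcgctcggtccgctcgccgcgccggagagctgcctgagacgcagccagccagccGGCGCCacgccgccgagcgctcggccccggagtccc

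In Ccn2 the CAGAC match begins 174 bases before the start, and the GGAATG matches begin 166, 101 and 92 bases before it. In Smad7 the GGCGCC matches begin 96 and 36 bases before the start. Of 33469 promoters of the same length 42.9% hold CAGAC, 12.1% GGAATG and 8.69% GGCGCC, so the first is common. The palindrome GTCTAGAC is in 0.173% of promoters and in none of the 8 members, which says only that these letters are not in this window. Ltbp1 holds CAGAC once, 99 bases before its start, and Tgfbr1 holds GGCGCC once, 242 bases before it. A match is a run of letters and not a shown binding site.

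Defining markers of kidney had signal on the arrays, with mean levels of 11.62 for Slc34a1 of the proximal tubule, 11.47 for Umod of the thick ascending limb and 10.0 for Aqp2 of the collecting duct. This shows that the markers were not absent and ranks no gene against another. On the second principal component (14.7% of the variance) W0 replicate 1 had the highest score, 31.7, and W1 replicate 1 the lowest, -20.4. The other 10 arrays scored from -10.9 to 11.4, and these 2 stood apart from them. W1 replicate 1 was no farther from its own group (-9.2 and -10.9) than W5 replicate 3 (-5.0) from its group (11.4 and 7.1).

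The ligands Tgfb1 and Tgfb2, the transducer Smad3 and the matricellular target Ccn2 were higher in the W0 kidneys than in CTL. Between W0 and CTL 4 of 9 members rose and none fell (limma, adjusted p under 0.05 over all genes), against 9.4% of all genes called in either direction. The median log2 change was 0.35 for the members and -0.01 for all genes. For 6 of the 9 members every W0 level lay on one side of every CTL level, against 26.5% of all genes. The RNA is from whole kidney, so that a change in the number of cells of a type and a change in RNA per cell cannot be told apart.

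**Figure D1:**
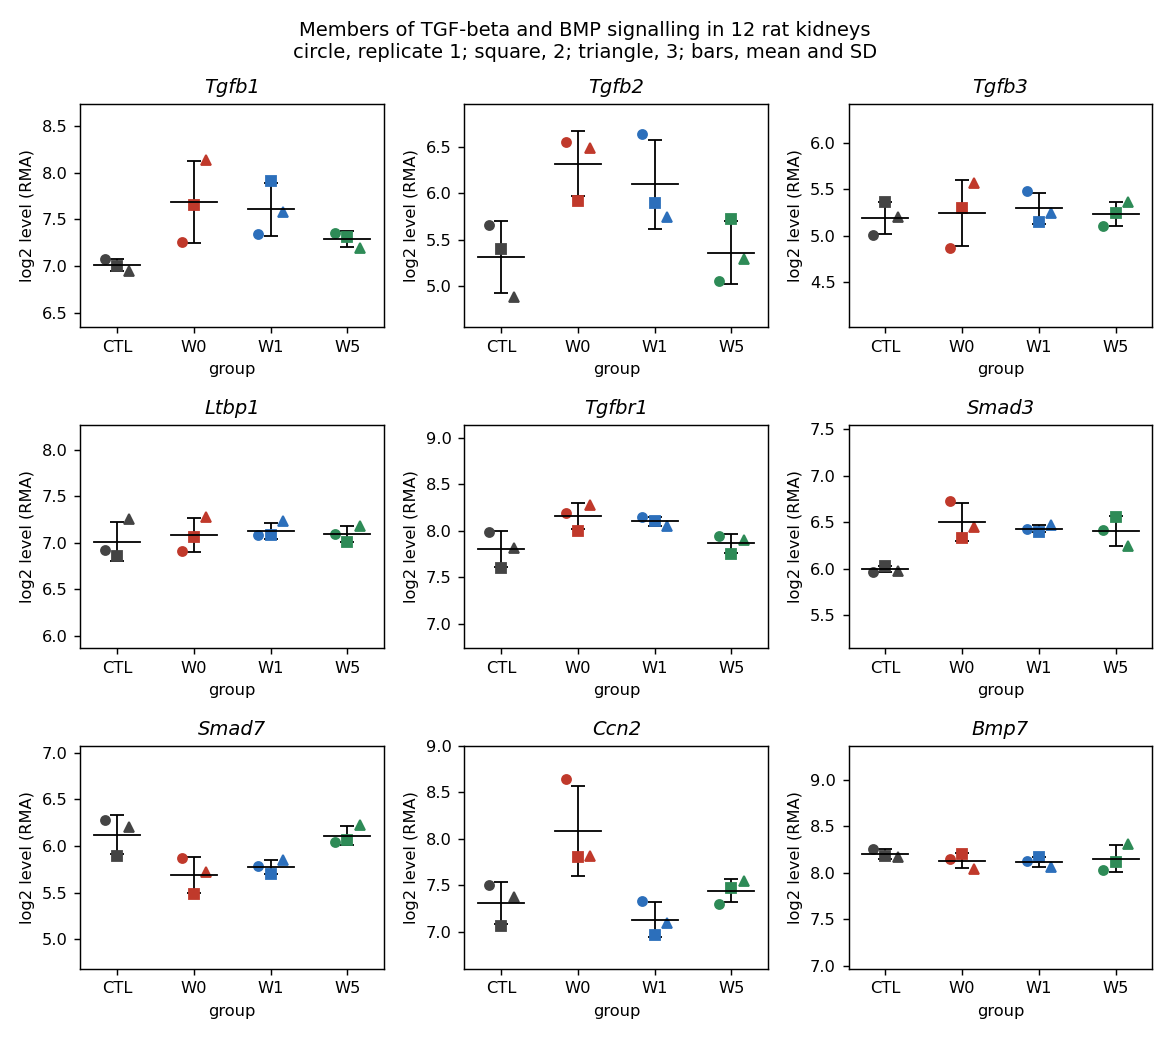
Log2 level (RMA, vertical axes of equal span) of the 9 measured members in the 12 kidneys, by group (horizontal axes); points are rats, marked by replicate number, and bars give the mean and SD of 3. Tgfb1, Tgfb2, Smad3 and Ccn2 are higher in every W0 kidney than in every CTL kidney, and Bmp7 stays between 8.03 and 8.31.

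Tgfb1, the main TGF-beta ligand of the injured kidney (chr1:90324312-90340627), had levels of 7.08, 7.0 and 6.95 in CTL and 7.26, 7.66 and 8.14 in W0. At W1 they were 7.34, 7.91 and 7.58, and at W5 7.36, 7.31 and 7.19. Every kidney of the 3 L-NAME groups thus lay above every CTL kidney, and the W0 and W1 kidneys were the most spread (SD 0.44 and 0.282, against 0.0639 in CTL). In W0 Tgfb1 rose 1.6-fold (log2 change 0.68, SE 0.19, 95% confidence interval 0.27 to 1.08, limma adjusted p = 0.0387). At W1 the change from CTL was 0.60 (0.19 to 1.01, adjusted p = 0.117) and at W5 0.28 (-0.13 to 0.68, adjusted p = 0.763). In order of the means, W0 (7.69), W1 (7.61) and W5 (7.29) each overlapped the next, and W5 did not overlap CTL (7.01).

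The rise of Tgfb1 was 0.89 without W0 replicate 1 (adjusted p = 0.00597). With all arrays it was close to the threshold, and the call was lost in 7 of the 12 settings with 1 array left out. The adjusted p was 0.15 without W0 replicate 3, where the change was 0.45, and 0.0753 without W0 replicate 2. It was 0.0786, 0.1 and 0.11 without CTL replicates 1, 2 and 3, 0.0517 without W1 replicate 3 and 0.0549 without W5 replicate 2. Tgfb1 at W1 became a call without W0 replicate 1 (0.0472), without W0 replicate 3 (0.0458) and without both W0 replicate 1 and W1 replicate 1 (0.0278).

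Tgfb2, a ligand with a higher need for the co-receptor betaglycan (chr13:100691540-100793227), had levels of 5.66, 5.40 and 4.89 in CTL and 6.55, 5.92 and 6.49 in W0. They were 6.64, 5.90 and 5.75 at W1 and 5.06, 5.73 and 5.3 at W5. The W0 and W1 kidneys lay above all CTL and W5 kidneys, and W5 overlapped CTL. The rise at W0 was 2.0-fold (log2 change 1.00, SE 0.261, interval 0.44 to 1.56, adjusted p = 0.0266), the largest of the members in that comparison. W1 was 0.78 above CTL (0.22 to 1.34, adjusted p = 0.138), and 0.51 without W1 replicate 1, the highest of the 12 kidneys (adjusted p = 0.418, or 0.367 without W0 replicate 1 as well). W5 differed from CTL by 0.05 (-0.51 to 0.61, adjusted p = 0.978). From W0 to W5 the difference was -0.96 (-1.52 to -0.40, adjusted p = 0.0506).

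For Tgfb2 the call at W0 was lost without CTL replicate 2 (adjusted p = 0.0629), CTL replicate 3 (0.113), W0 replicate 1 (0.0842) and W0 replicate 3 (0.0915), with changes of 0.79 to 1.04. The difference between W5 and W0 became a call without CTL replicate 3 (0.042), W0 replicate 2 (0.0354) or W1 replicate 1 (0.0285). Tgfb2 also differed over the 4 groups (moderated F of limma 7.65, adjusted p = 0.0464). Its standard deviation over the 12 kidneys, 0.569, was higher than that of 98.0% of genes.

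Tgfb3, the third ligand (chr6:111435170-111457646), lay between 4.87 and 5.57 in all 12 kidneys, and both ends of this range were W0 kidneys. Its changes from CTL were 0.06 at W0 (interval -0.30 to 0.42, adjusted p = 0.891), 0.10 at W1 and 0.05 at W5. Ltbp1, which holds latent TGF-beta in the matrix (chr6:25781625-26177346), lay between 6.86 and 7.28, with changes of 0.07 at W0 (-0.22 to 0.36, adjusted p = 0.827), 0.12 at W1 and 0.08 at W5. For both genes all groups overlapped.

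Tgfbr1, the type I receptor of TGF-beta (chr5:66449348-66506371), had levels of 7.99, 7.60 and 7.81 in CTL and 8.19, 8.0 and 8.28 in W0. It was at 8.15, 8.10 and 8.05 in W1 and at 7.94, 7.75 and 7.90 in W5. The W0 and W1 kidneys lay above those of CTL and W5, by a narrow margin. The difference from CTL was 0.35 at W0 (0.08 to 0.62, adjusted p = 0.101), 0.30 at W1 (0.03 to 0.57, adjusted p = 0.247) and 0.06 at W5 (-0.21 to 0.33), and none was called.

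Smad3, the transducer that carries the TGF-beta signal to most matrix genes (chr8:73022204-73132324), had levels of 5.97, 6.03 and 5.98 in CTL, an SD of 0.0324. They were 6.73, 6.33 and 6.45 at W0, 6.43, 6.39 and 6.47 at W1, and 6.42, 6.56 and 6.24 at W5. Every kidney of the L-NAME groups lay above every CTL kidney, and the 3 L-NAME groups overlapped each other. Smad3 rose 1.42-fold at W0 (log2 change 0.51, SE 0.124, interval 0.24 to 0.78, adjusted p = 0.0189). At W1 the change was 0.43 (0.17 to 0.70, adjusted p = 0.084). At W5 it was 0.41 (0.14 to 0.67), the largest change of a member at that time, with an unadjusted p of 0.00553 and an adjusted p of 0.639.

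The call of Smad3 at W0 was lost without CTL replicate 1 (adjusted p = 0.0633), CTL replicate 3 (0.0578) or W0 replicate 1 (0.0672, change 0.40), and without W0 replicate 1 and W1 replicate 1 together (0.0629). Smad3 at W1 became a call without W0 replicate 1 (0.0456). Between W5 and W0 Smad3 differed by -0.10 (-0.37 to 0.16, adjusted p = 0.733), and this sign turned without the pair of arrays that stood apart (0.01). Over the 4 groups its F was 6.81 (adjusted p = 0.062).

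Smad7, the inhibitory Smad (chr18:71263508-71291849), had levels of 6.28, 5.89 and 6.20 in CTL and of 5.87, 5.48 and 5.72 in W0. It was at 5.78, 5.70 and 5.85 in W1 and at 6.04, 6.06 and 6.23 in W5. The W0 and W1 kidneys lay below those of CTL and W5, with W0 replicate 1 just under CTL replicate 2. The difference from CTL was -0.43 at W0 (-0.72 to -0.14, unadjusted p = 0.00641, adjusted p = 0.0613), -0.35 at W1 (-0.64 to -0.06, adjusted p = 0.211) and -0.02 at W5 (-0.31 to 0.27).

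The difference of Smad7 at W0 missed the threshold and passed it in 8 of 23 other settings. Over the 12 arrays left out in turn it ran from -0.55 to -0.33, with an adjusted p of 0.034 to 0.21. Leaving out CTL replicate 2 gave an adjusted p of 0.034, W0 replicate 1 gave 0.0395, and W0 replicate 1 with W1 replicate 1 gave 0.0422. With the arrays centred on their medians it was 0.0461, and after repeated quantile normalization 0.0492.

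**Figure D2:**
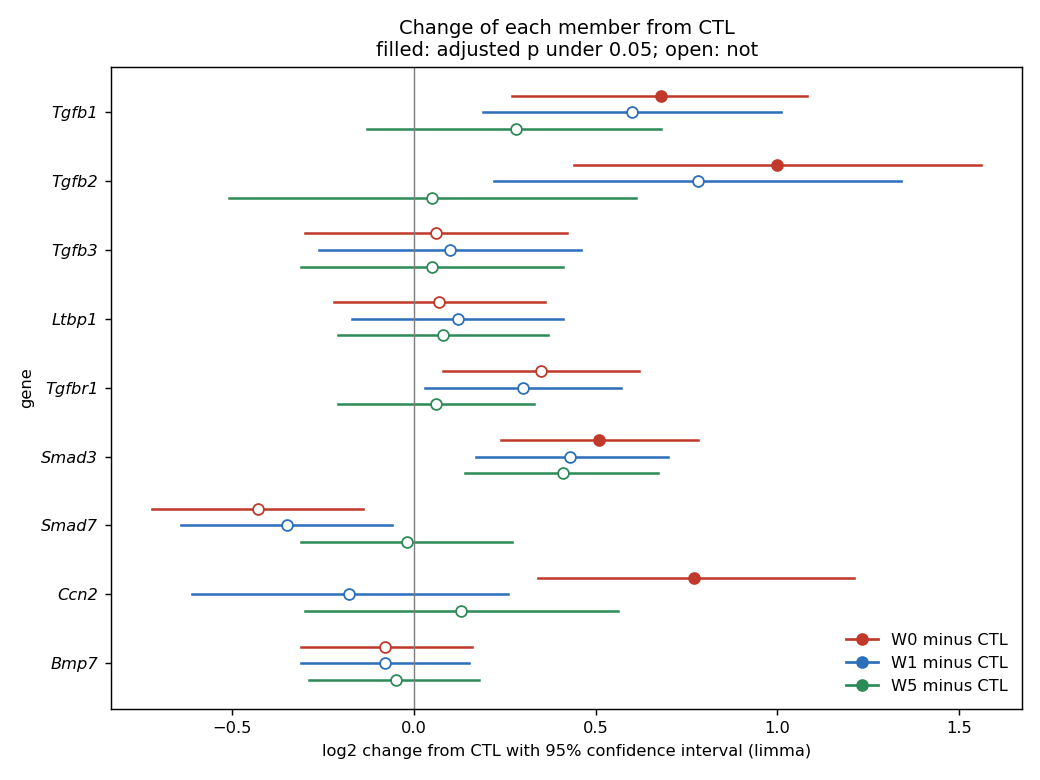
Log2 change of each measured member from CTL (horizontal axis) at W0, W1 and W5, with 95% confidence intervals from limma; filled points have an adjusted p under 0.05 over all 18166 genes. Filled points are at W0 for Tgfb1 (0.68), Tgfb2 (1.00), Smad3 (0.51) and Ccn2 (0.77), and no point of W1 or W5 is filled.

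Ccn2, the connective tissue growth factor that TGF-beta induces in fibroblasts and epithelial cells (chr1:22621498-22624614), had levels of 7.50, 7.06 and 7.37 in CTL. They were 8.64, 7.80 and 7.81 at W0, 7.33, 6.96 and 7.09 at W1 and 7.30, 7.47 and 7.54 at W5. The W0 kidneys lay above all 9 others, with W0 replicate 1 the highest, and CTL, W1 and W5 overlapped. At W0 Ccn2 rose 1.71-fold (log2 change 0.77, SE 0.202, interval 0.34 to 1.21, adjusted p = 0.0274). Within 1 week after L-NAME was stopped its level was 0.95 lower than at W0 (interval of the difference -1.39 to -0.52, unadjusted p = 0.000345, adjusted p = 0.0561). W1 differed from CTL by -0.18 (-0.61 to 0.26) and W5 by 0.13 (-0.30 to 0.56).

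The rise of Ccn2 at W0 was 0.50 without W0 replicate 1 (adjusted p = 0.0712) and 0.50 without W0 replicate 1 and W1 replicate 1 (0.0503). The call was also lost without CTL replicate 2 (0.115) and CTL replicate 3 (0.0623). The difference between W1 and W0 was -0.67 without W0 replicate 1 (adjusted p = 0.0911) and -0.78 without W0 replicate 1 and W1 replicate 1 (0.0745). Over the 12 arrays left out in turn it ran from -1.09 to -0.67, with an adjusted p of up to 0.186, and it became a call without W0 replicate 3 (0.0347). The difference between W5 and W0, -0.64 (adjusted p = 0.0922), was -0.37 without W0 replicate 1. Over the 4 groups Ccn2 had the highest F of the members (8.41, adjusted p = 0.0358), and 2 of 9 members passed this test, against 6.72% of all genes.

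Bmp7 (chr3:182059318-182135273) was the steadiest member. Its levels were 8.26, 8.18 and 8.17 in CTL and 8.15, 8.20 and 8.04 at W0. They were 8.13, 8.17 and 8.06 at W1 and 8.03, 8.12 and 8.31 at W5. All groups overlapped. The change at W0 was -0.08 (-0.31 to 0.16, adjusted p = 0.758), so that a fall of more than 0.31 lies outside the interval. The standard deviation of Bmp7 over the 12 kidneys, 0.0841, was higher than that of 1.5% of genes.

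At W1 0 of 9 members were called against CTL, where 3.02% of all genes were. An unadjusted limma p under 0.05 was found there for 5 members (Tgfb1, Tgfb2, Tgfbr1, Smad3 and Smad7) and for 2905 genes in all. At W5 0 members and 0.0% of all genes were called, and Smad3 alone had an unadjusted p under 0.05, as had 1333 genes in all. Of the differences between the L-NAME groups 0 members were called from W0 to W1 (0.528% of all genes), from W1 to W5 (0.286%) or from W0 to W5 (5.04%). From W0 to W1 the difference was -0.07 for Tgfb1 (-0.48 to 0.33), -0.22 for Tgfb2 (-0.78 to 0.33) and -0.95 for Ccn2. Whether these differences vary between the genes was not tested.

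Among the other genes of the pathway, 8 of 14 target genes of TGF-beta and 3 of 10 genes of its release and activation rose at W0, and 2 of 8 target genes of BMP fell. Of the 78 measured genes 15 rose and 7 fell, and 56 were not called, beside the 9.4% of all genes called. Their median log2 change was 0.11. At W1 10 had risen and 3 fallen against CTL, where 3.02% of all genes were called. At W5 none of the 78 was called, with a median of 0.05, and neither was any other gene (0.0% of all genes).

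The 14 measured target genes of TGF-beta had a median change of 0.69 at W0, 8 rose and 1 fell. Timp1, an inhibitor of matrix metalloproteinases, was between 6.03 and 6.36 in CTL and between 8.26 and 8.83 in W0, a change of 2.45 (adjusted p = 7.7e-06). Cdkn1a, the cell cycle inhibitor p21, was between 6.03 and 6.43 in CTL and at 9.25, 8.17 and 8.09 in W0, a change of 2.25 (adjusted p = 9.33e-05). In both genes the groups were far apart, and W0 replicate 1 had the highest Cdkn1a level, as it had for Ccn2. Without this array the change of Cdkn1a was 1.87 (adjusted p = 2.03e-05).

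The fibrillar collagens and fibronectin had their highest levels at W1. Col1a1 was at 5.93, 6.04 and 5.96 in CTL, 6.48, 6.52 and 6.68 at W0, 7.27, 7.41 and 7.20 at W1, and 6.84, 6.74 and 6.74 at W5. Its groups did not overlap, and it rose by 0.58 at W0 (adjusted p = 0.00376) and further by 0.73 from W0 to W1 (adjusted p = 0.00779, and 0.101 with only these 2 groups in the fit). Its change from CTL was 1.31 at W1 (adjusted p = 4.07e-05) and 0.79 at W5 (adjusted p = 0.065). Col3a1 rose by 1.29 at W0 and 1.80 at W1, Col1a2 by 0.66 and 1.36, and Fn1, which encodes fibronectin, by 1.15 and 1.55, while their differences between W1 and W0 were not called (adjusted p = 0.178, 0.0597 and 0.236). Over the same interval, from W0 to W1, Ccn2 had a change of -0.95 that was not called.

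Junb, an early response transcription factor, rose by 1.03 at W0 (adjusted p = 0.0349) with a change of 0.25 at W1, and lost the call at W0 when the arrays were centred on their medians (0.0516) or quantile normalized again (0.0604). Tgfbi, a matrix protein named for its induction by TGF-beta, fell by 0.70 at W0 (adjusted p = 0.0126) and by 0.82 at W1 (adjusted p = 0.0157). It was at 7.22, 7.08 and 7.42 in CTL and at 6.93, 6.38 and 6.30 in W0, below the CTL range and opposite in direction to the other called genes of the list. Its call at W1 was lost without CTL replicate 1 (0.055), CTL replicate 3 (0.0584) or W1 replicate 2 (0.0735). Postn, the matricellular periostin, was also called at W0 (0.80, adjusted p = 0.0449), with groups that overlapped, and lies outside the rule for named genes. That call was lost in 9 of the 12 settings with 1 array left out, with an adjusted p of up to 0.17, and was kept without W0 replicate 1, W1 replicate 1 or W1 replicate 3.

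Among 10 genes of TGF-beta release and activation 3 rose at W0 and none fell, with a median of 0.50. Plat, the tissue plasminogen activator, rose by 1.03 (adjusted p = 0.000343), with 8.14, 8.13 and 8.41 in CTL and 9.28, 9.15 and 9.34 in W0. Ltbp4, a latent TGF-beta binding protein like Ltbp1, rose by 0.65 (adjusted p = 0.0122) and stayed 0.66 above CTL at W1 (adjusted p = 0.0275). That call at W1 was lost without CTL replicate 1 (0.127), CTL replicate 2 (0.0648), W1 replicate 1 (0.0707), W1 replicate 2 (0.0741) or W1 replicate 3 (0.0885). Plat was at 8.68, 8.69 and 8.35 in W1 and overlapped CTL. The third gene called at W0 lies outside the rule for named genes and is not named here.

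None of the 9 other receptors (median 0.04) and none of the 6 other Smads (median 0.03) was called at W0. Of 9 regulators of Smads 1 rose, Tgif1, a homeodomain repressor that binds Smad2 and Smad3. It had levels of 7.25, 7.47 and 7.66 in CTL and 9.01, 9.20 and 9.15 in W0, a change of 1.66 (adjusted p = 3.31e-05), and of 8.67, 8.62 and 8.14 at W1 (change 1.02, adjusted p = 0.005). At W5 it was at 7.89, 7.54 and 7.63 and overlapped CTL. In these kidneys Smad7, which also restrains the pathway, had a change of -0.43 at W0 that was not called.

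In the lists of BMP, GDF and activin ligands, of their antagonists and of BMP targets, genes were called in both directions. Of 11 BMP, GDF and activin ligands 2 rose and 2 fell at W0 (median -0.02). The 2 that fell were the BMP ligands Bmp4 and Bmp6, and the 2 that rose were Gdf15 and Inhbb. Bmp4, a ligand that shapes the ureter in mouse development, fell by 1.15 (adjusted p = 0.00104), from 7.55, 7.29 and 7.48 in CTL to 6.59, 5.82 and 6.47. It was at 6.94, 6.61 and 6.76 in W1 and 6.92, 7.10 and 7.02 in W5, below every CTL kidney without a call (adjusted p = 0.0567 and 0.672). Bmp6 fell by 0.49 (adjusted p = 0.0274). Gdf15, a stress-induced cytokine, rose by 1.27 (adjusted p = 0.00527, with 0.98 without W0 replicate 1) and was 0.10 from CTL at W1, and Inhbb, the beta B subunit of activins, rose by 0.46 (adjusted p = 0.0173).

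Of 11 BMP and activin antagonists 1 rose and 2 fell (median -0.04). Grem1, which encodes gremlin, a BMP antagonist, rose by 0.98 (adjusted p = 0.018), with 7.82, 8.24 and 8.22 in CTL and 8.77, 9.71 and 8.75 in W0. Fst, which encodes the activin antagonist follistatin, fell by 0.61 (adjusted p = 0.00575). Sostdc1, which encodes the BMP antagonist USAG-1, fell by 0.72 (adjusted p = 0.0115). Of 8 target genes of BMP 2 fell at W0 (median -0.01), Id4 by 1.51 (adjusted p = 0.000621) and Id1 by 0.53 (adjusted p = 0.0339), both inhibitors of basic helix-loop-helix factors. Id4 was at 8.11, 7.64 and 8.09 in CTL, 6.95, 6.04 and 6.32 at W0, 7.08, 6.51 and 6.96 at W1 and 7.52, 7.41 and 7.54 at W5, and rose by 1.06 from W0 to W5 (adjusted p = 0.0107).

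**Figure D3:**
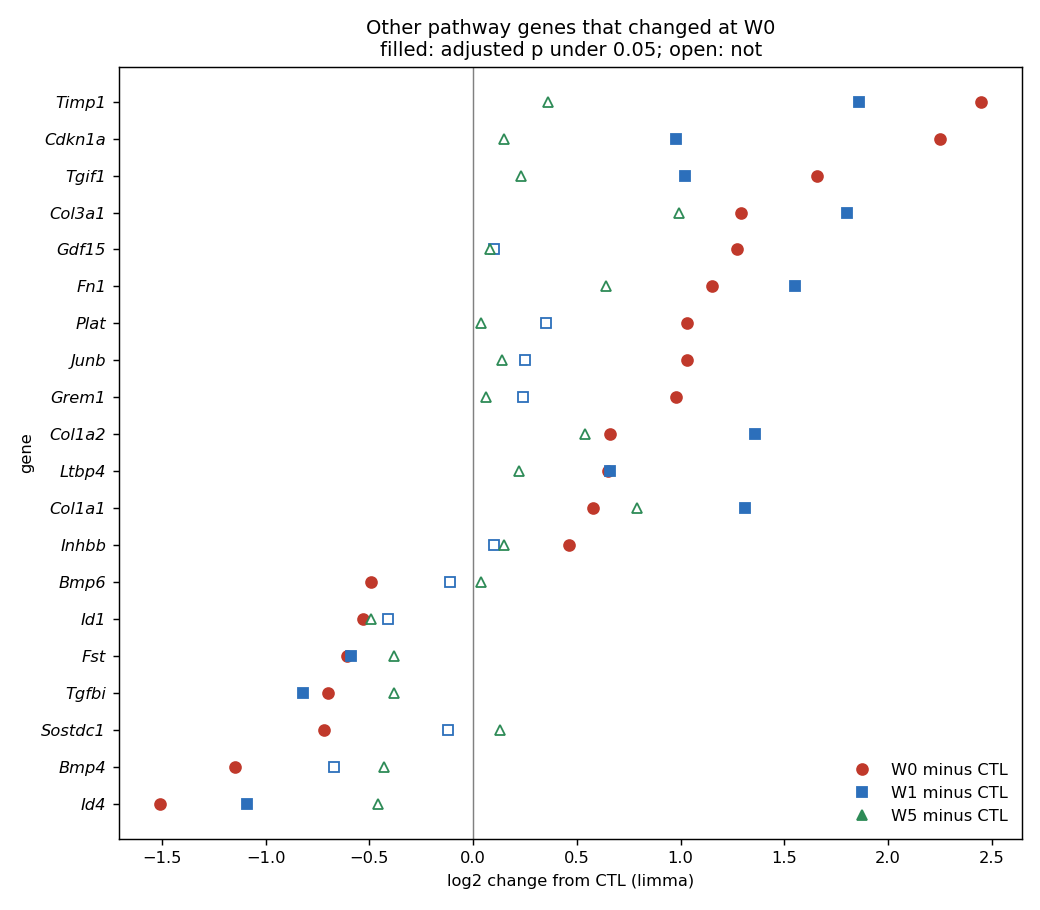
Log2 change from CTL (horizontal axis, limma) at W0, W1 and W5 of the 20 other pathway genes with the smallest adjusted p at W0; filled symbols have an adjusted p under 0.05 over all genes. Col1a1, Col1a2, Col3a1 and Fn1 lie farther right at W1 than at W0, and no W5 symbol is filled.

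Of these 20 genes 12 kept their call at W0 with any single array left out, and 8 did not. Ltbp4 lost it without CTL replicate 1 (adjusted p = 0.062) or W0 replicate 3 (0.0581), Tgfbi without CTL replicate 3 (0.0584) or W0 replicate 3 (0.0598), and Grem1 without CTL replicate 1 (0.0781) or W0 replicate 2 (0.0504). Col1a2 lost it without CTL replicate 2 (0.0694), W0 replicate 2 (0.0522) or W0 replicate 3 (0.0666), and Inhbb without CTL replicate 1 (0.0605), CTL replicate 3 (0.0728) or W0 replicate 1 (0.0553). For Bmp6 this held without CTL replicates 1, 2 or 3 (0.0547, 0.097 and 0.0729) and W0 replicates 1 or 2 (0.0938 and 0.0585). For Id1 it held without CTL replicates 2 or 3 (0.0725 and 0.14) and W0 replicates 1, 2 or 3 (0.0508, 0.113 and 0.0579). For Junb it held without CTL replicates 1, 2 or 3 (0.0748, 0.0684 and 0.12) and W0 replicates 1 or 3 (0.125, with a change of 0.72, and 0.0552).

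Part of the markers of fibroblasts, macrophages and injured tubules were called higher at W0, and part of the proximal tubule markers lower. Of all genes 9.4% were called there in either direction. In each of these lists some markers that were not called had W0 means on the other side of CTL. Of 9 fibroblast and myofibroblast markers 5 rose at W0 (median 0.52), and their mean log2 level per kidney was 5.79 to 5.91 in CTL, 6.01 to 6.56 at W0, 6.45 to 6.65 at W1 and 6.11 to 6.19 at W5. This list holds Col1a1, Col1a2 and Postn, which are also on the target list. Of 11 macrophage markers 8 rose (median 1.00), with 6.30 to 6.31 in CTL, 6.77 to 7.45 at W0, 7.06 to 7.39 at W1 and 6.38 to 6.54 at W5. Of 10 genes of tubular injury 7 rose (median 1.48), with 6.84 to 7.07 in CTL, 8.48 to 8.95 at W0, 7.78 to 8.53 at W1 and 7.22 to 7.43 at W5.

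Of 8 proximal tubule markers 4 fell at W0 (median -0.75), with means of 10.37 to 10.58 in CTL, 9.91 to 10.11 at W0, 10.07 to 10.47 at W1 and 9.72 to 10.49 at W5. Of 7 markers of the loop and distal convoluted tubule 2 fell, and of 8 collecting duct markers 1 rose and 1 fell. None of 7 T and B cell, 6 endothelial or 4 podocyte markers was called at W0. The part of these cell types in the levels of Tgfb1, Tgfb2, Smad3, Ccn2 and the target genes was not tested.

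**Figure D4:**
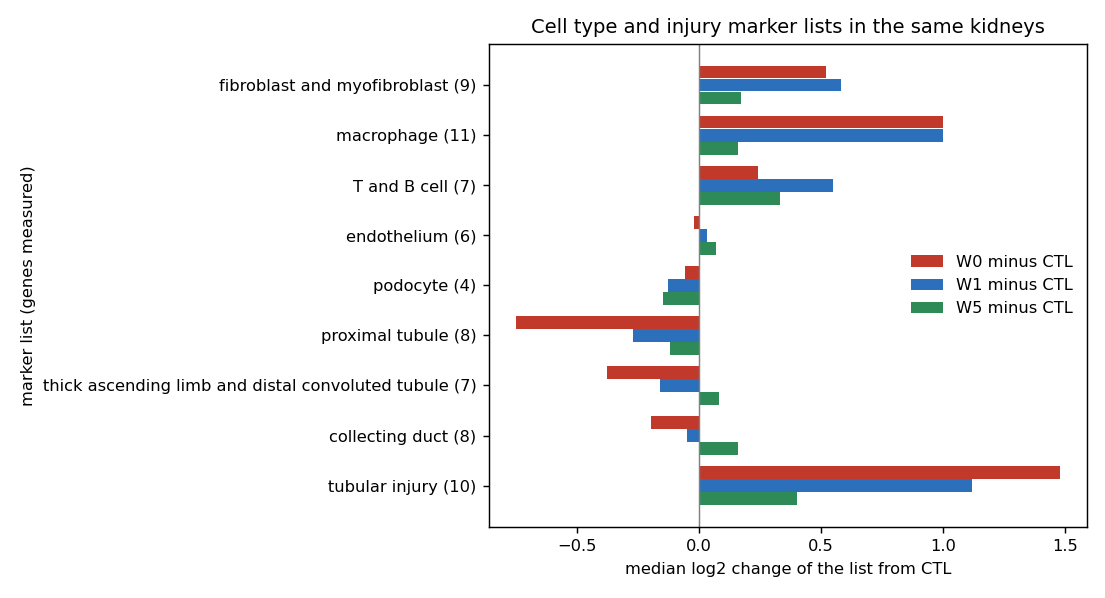
Median log2 change from CTL (horizontal axis, limma) of 9 marker lists in the same kidneys at W0, W1 and W5, with the number of genes measured in brackets. The macrophage bars reach 1.00 at W0 and W1, and the proximal tubule bar reaches -0.75 at W0.

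Of all 18165 other genes, those whose course over the 12 kidneys was most like that of Ccn2 were Clec12b, Slc38a5 and Zfand2a, with mean absolute differences of 0.117, 0.119 and 0.123 on the log2 scale after each gene was centred on its CTL mean. Those nearest to Tgfb2 were Bcat1 (0.214), Adam23 (0.218) and Mybpc2 (0.224). Bcat1, a branched-chain aminotransferase, had means of 4.91 in CTL, 5.84 at W0, 5.41 at W1 and 4.97 at W5. Zfand2a, an arsenite-inducible zinc finger protein, had means of 5.32, 6.10, 5.36 and 5.54. Those of Clec12b were 4.33, 5.15, 4.17 and 4.53, and those of Slc38a5 were 3.45, 3.98, 3.26 and 3.6. Every group mean of Slc38a5 was thus under 5, the level used in the filter on dim genes. The points share the 12 kidneys and their groups, and the likeness is a description.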

How the data were processed

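RNA of 12 rat kidneys was hybridized on Affymetrix Rat Gene arrays, and the log2 values deposited by the authors had been normalized with RMA. The RMA software, scan dates and batches are not given in the sources used here. Of 20944 probesets 18510 carried a single gene symbol, 575 several and 1859 none, and every column of values had a sample. For 290 genes with more than 1 such probeset the one of highest mean was used, which left 18166 genes. Arrays carry no read depth, and their number, 3 per group, limits the precision.

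The 4 groups were fitted together with limma 3.58.1 in R 4.3.3 (13.8 total degrees of freedom, median standard error 0.145), with Benjamini-Hochberg adjustment over all genes and a threshold of 0.05. The code was tested on simulated data. Members and gene lists were chosen with earlier results of these data known. Named genes are all members, the 20 other pathway genes with the smallest adjusted p at W0 and, for members called by the F test, the 3 nearest genes. Alternatives were another scale, variance trend, a filter on dim genes, fewer groups, a replicate block, array weights, the mean of probesets, arrays left out, a 2-fold rule and the methods' t-test. Replicate numbers 1 to 3 recur in every group, and no label names a shared litter or batch.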

Additional observations from a re-analysis of the deposited data

How the results depend on the processing

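The directions of the 4 members called at W0 held under every alternative, and their calls did not. All 4 were kept with centring, a variance trend, dim genes left out, a replicate block, array weights and the mean of probesets. Tgfb1 was lost with repeated quantile normalization (adjusted p = 0.0587). Leaving out single arrays gave 0 to 4 calls among all 9 members, Smad7 included where it passed. The count fell to 0 when CTL replicate 3 was dropped. It fell to 2 on dropping CTL replicate 1, CTL replicate 2, W0 replicate 1 or W0 replicate 3. Smad7, lower at W0, was among the 2 after dropping CTL replicate 2 (0.034) or W0 replicate 1 (0.0395). Of the 4 members only Smad3 stayed called in the first of these settings, and only Tgfb1 in the second. Of the 9 members 1 was called with only the 2 groups, 1 by the 2-fold rule, 2 by the methods' t-test and 0 after Benjamini-Hochberg. For Smad7 the adjusted p at W0 was 0.0397 with dim genes left out and 0.0328 with array weights. In W1 against CTL 2 members were called with array weights, 1 without both apart arrays, 2 by the methods' t-test and 0 to 2 with single arrays left out. In W5 against CTL 2 were called by the t-test and 0 with any array left out. Ccn2 was the 1 member called in W1 against W0 with centring (0.0496), repeated quantile normalization (0.0405), a variance trend (0.0417), dim genes left out (0.0387), array weights (0.0219) and by the t-test, and 0 or 1 with arrays left out. In W5 against W1 2 were called by the t-test and 0 with arrays left out. In W5 against W0 Tgfb2 alone was called with a trend (0.0437) and with dim genes left out (0.0363). With array weights it was Smad7 alone (0.0408), and without both apart arrays Tgfb1 alone (0.0397). The t-test called 3 members there, and 0 or 1 were called with arrays left out. By the F test 1 was called with centring, 1 with quantile normalization, 4 with array weights and 0 to 2 with arrays left out (0 without CTL replicate 2, CTL replicate 3 or W1 replicate 2, and 1 without W0 replicate 1, W0 replicate 3, W1 replicate 3 or any W5 replicate). The 22 pathway genes called at W0 became 10 by the 2-fold rule, 0 by the adjusted t-test and 15 to 26 with arrays left out.

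No label pairs the rats by replicate number, and the data did not settle it. Of 18 same-numbered pairs 7 had a correlation of deviations over 0.1 (range of the 18, -0.0363 to 0.172). Of the 36 others 2 had one (range -0.214 to 0.19). With the replicate block 1 member was called in W1 against W0 (Ccn2, 0.0447) and 1 in W5 against W0 (Tgfb2, 0.0489), and Smad7 at W0 passed (0.0351).

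Over all genes the counts in W0 against CTL were 413 by the 2-fold rule, 3137 by the t-test, 34 after its adjustment and 1070 (without CTL replicate 1) to 1789 with arrays left out. In W1 against CTL they were 832 with array weights, 183, 2480 and 1 by these rules, and 165 to 745. In W5 against CTL they were 1 with a trend, 1 with dim genes left out, 2 with array weights, 13 by the 2-fold rule, 1312 by the t-test, and 0 to 1. In W1 against W0 they were 152 with dim genes left out, 19 with only the 2 groups, 214 with array weights, 58 without both apart arrays, 1262 and 0 by the t-test, and 22 to 169. In W5 against W1 they were 26 with centring, 32 with quantile normalization, 82 with a trend, 89 with dim genes left out, 80 with only the 2 groups, 665 with array weights, 1780 and 0 by the t-test, and 3 to 152. In W5 against W0 they were 537 with only the 2 groups, 1662 with array weights, 265 by the 2-fold rule, 2650 and 0 by the t-test, and 407 to 982.

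Signs turned only for differences near 0. At W5 against CTL quantile normalization gave -0.0 for Tgfb2, -0.0 for Tgfb3 and 0.03 for Bmp7, and single arrays gave -0.17 to 0.22 for Tgfb2, -0.04 to 0.13 for Tgfb3, -0.04 to 0.16 for Tgfbr1, -0.13 to 0.06 for Smad7 and -0.13 to 0.01 for Bmp7. At W0 against CTL they gave -0.1 to 0.25 for Tgfb3 and -0.03 to 0.19 for Ltbp1. Smad3 in W5 against W0 was 0.02 with array weights, 0.01 without both apart arrays and -0.19 to 0.01 with single arrays left out. The cause of these shifts was not tested. The low levels of a gene on an array are limited by signal over background, which the deposited values do not give.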
